A study of Mus musculus with 9 samples.

Results

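The genes described are the 3 members of the mouse Ell family of RNA polymerase II elongation factors, Ell, Ell2 and Ell3, and their 2 partners Eaf1 and Eaf2. They are 5 of the 27095 loci in a table of gene expression from fetal mouse brain. The group was chosen by the level of Ell3, which was among the highest ratios of EtOH-exposed affected offspring to control, and the other 4 genes were added because they belong to the same families. That choice came from an earlier analysis, which kept loci by the authors' q-values and a minimum FPKM. Without the q-values Ell3 ranks 98 of the 15455 loci that have a mean of at least 1 FPKM and a value above 0 in every group. The affected against control values of Ell3 are therefore a description, and no test was applied to them.

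RNA-seq was performed on fetal brain from 9 wild-type C57BL/6 mice on gestational day 17. There were 3 control fetuses from dams that received vehicle, and 3 EtOH-exposed unaffected and 3 EtOH-exposed affected fetuses from dams injected with EtOH earlier in gestation. The study sorted exposed fetuses into affected and unaffected by defects of the eye and cortex, and in another passage names the eye and face. By the first wording the brain was itself part of the sorting. The affected and unaffected groups were thus formed by outcome and not assigned, and the labels do not say how many litters they came from. The labels name the tissue as fetal brain while the methods of the study name the cortex, and the samples are whole tissue, in which fewer cells of a type and less RNA per cell cannot be told apart.

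Ell proteins raise the rate at which RNA polymerase II moves along a gene by suppressing its transient pausing. They work inside the super elongation complex, which also holds an AFF scaffold protein, the YEATS proteins Mllt1 or Mllt3, and the kinase P-TEFb (Cdk9 with a cyclin T), and in the little elongation complex at small nuclear RNA genes. Eaf1 and Eaf2 bind Ell proteins directly and stimulate their activity. Ell is expressed broadly, Ell2 is best known from antibody-secreting plasma cells, and Ell3 was first described as abundant in testis.

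Each value is a group FPKM, that is, a count of fragments divided by exon length in kilobases and by library depth, which the authors' software computed over the 3 animals of a group. There is 1 such value per group and locus, so no error between animals could be computed and no difference was tested. A difference is called past the fold where the ratio of group values is at least 1.5-fold, a log2 ratio of 0.585, among the 15548 loci with a mean FPKM of at least 1 over the 3 groups. Because FPKM is scaled to length, levels of different genes can be set side by side.

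The regions around the start sites of the 3 Ell genes are shown because their levels took different courses across the groups. They are the RefSeq windows of the GRCm38.p6 build, which is the mm10 build of the table, from 250 bases before the start to 50 after it, written 5′ to 3′ on the strand of the gene. Capitals mark the GC box GGGCGG, the CCAAT box and the cAMP response element TGACGTCA, each searched on both strands. Ell3 lies at chr2:121442552-121442851 on the minus strand, Ell at chr8:70539425-70539724 and Ell2 at chr13:75707234-75707533, both on the plus strand.
Ell3: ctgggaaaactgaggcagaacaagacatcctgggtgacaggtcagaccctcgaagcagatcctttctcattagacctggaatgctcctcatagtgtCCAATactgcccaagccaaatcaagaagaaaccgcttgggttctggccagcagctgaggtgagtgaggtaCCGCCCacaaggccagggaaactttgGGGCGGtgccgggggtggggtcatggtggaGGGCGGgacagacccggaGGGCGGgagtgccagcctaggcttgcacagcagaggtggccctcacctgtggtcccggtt
Ell: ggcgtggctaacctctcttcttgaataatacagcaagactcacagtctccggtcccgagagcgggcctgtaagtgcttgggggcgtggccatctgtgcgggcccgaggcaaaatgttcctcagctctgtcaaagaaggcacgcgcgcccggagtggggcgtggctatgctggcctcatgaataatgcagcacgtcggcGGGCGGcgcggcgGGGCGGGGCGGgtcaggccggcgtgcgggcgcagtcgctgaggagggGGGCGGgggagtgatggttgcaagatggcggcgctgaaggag
Ell2: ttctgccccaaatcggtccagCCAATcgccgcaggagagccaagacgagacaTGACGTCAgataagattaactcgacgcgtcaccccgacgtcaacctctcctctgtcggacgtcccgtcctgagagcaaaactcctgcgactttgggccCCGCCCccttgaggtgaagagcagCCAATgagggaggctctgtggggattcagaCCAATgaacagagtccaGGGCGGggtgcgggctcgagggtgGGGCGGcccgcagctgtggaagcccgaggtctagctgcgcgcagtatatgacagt

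The Ell3 window held 4 GC boxes and 1 CCAAT box, with 59.7% G and C and 9 CpG dinucleotides. The Ell window also held 4 GC boxes, of which 2 share a base, with 66.3% G and C and 29 CpG dinucleotides, and no CCAAT box. In the Ell2 window there were 3 GC boxes, 3 CCAAT boxes and 1 cAMP response element, with 61.3% G and C and 23 CpG dinucleotides. Ell3 thus had the fewest CpG dinucleotides of the 3 family members, near the median of 7 over all 32851 RefSeq windows, whose median G and C content was 52.7%. A GC box was present in 35.7% of all windows and 4 or more in 5.48%, a CCAAT box in 37.4%, and the cAMP response element in 1.79%. The Eaf1 window, at chr14:31494829-31495128, had no GC box and 2 CCAAT boxes. Eaf2 has 3 annotated starts, and their windows held between 0 and 5 GC boxes. The TATA box TATAAA was found in 1 of the Eaf2 windows and in none of those of Ell, Ell2, Ell3 and Eaf1, against 13.6% of all windows. These matches describe the letters only.

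Ell3 lies at chr2:121439027-121442601 on the minus strand. The Ell3 level was 1.32 FPKM in control, 1.24 FPKM in unaffected and 3.17 FPKM in affected brain. The affected value stood apart, while the control and the unaffected values were close to each other. The ratio of affected to control was 2.41 (log2 ratio 1.27), the ratio of affected to unaffected was 2.55 (log2 ratio 1.35), and the ratio of unaffected to control was 0.942 (log2 ratio -0.09). Among the 15548 loci, 99.1% had a lower log2 ratio than Ell3 in affected against control and 98.9% in affected against unaffected. Among loci with a gene name and at least 1 FPKM in both groups, Ell3 ranked 6 of 12422 in affected against control, and the 5 loci above it were small RNA genes or a locus joined with one (Snora52, Mir1935, Mir700 with Rcan3, Scarna2 and Snord65). Just below it stood Snord88c, with a log2 ratio of 1.15. The rank depends on that minimum of 1 FPKM. Slc27a2, at 0.986 FPKM in control, was left out by it and had a log2 ratio of 1.28, above that of Ell3.

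**Figure D1:**
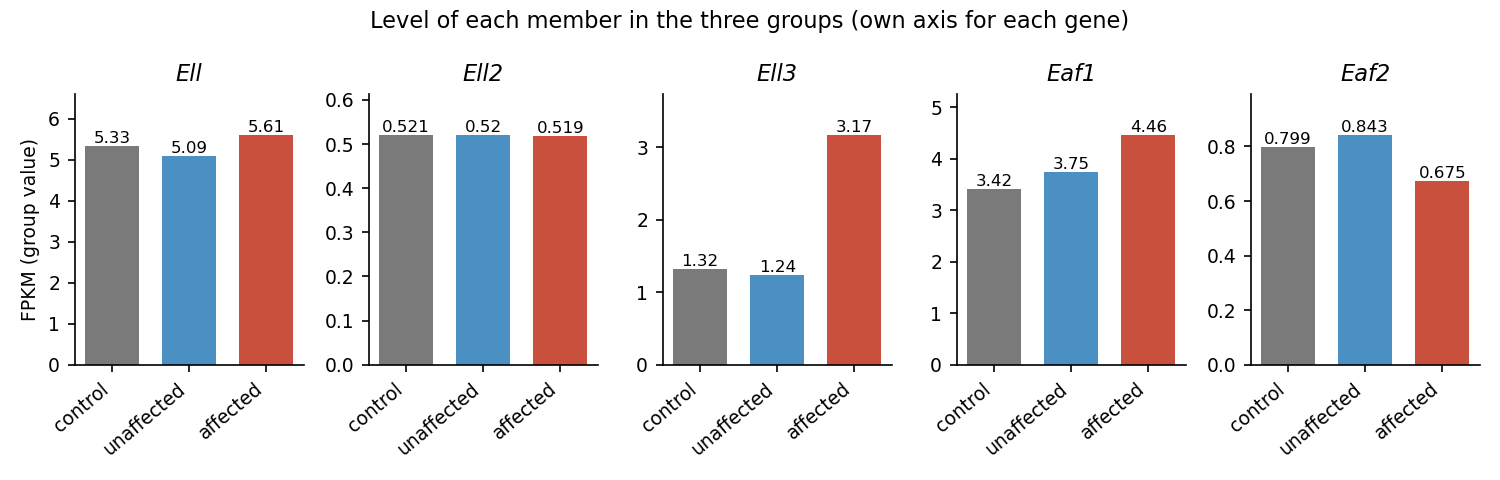
Group FPKM of Ell, Ell2, Ell3, Eaf1 and Eaf2 in control, unaffected and affected fetal brain, with a separate linear axis from 0 for each gene; each bar is the single value of a group of 3 animals, so there is no error bar. Ell3 stood at 3.17 FPKM in affected brain against 1.32 and 1.24 in the other groups, while Ell2 was between 0.519 and 0.521 in all of them.

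The Ell3 level was low. Its locus in the table has the ends of a GENCODE coding transcript of 11 exons and 1674 nt. At that length the group values amount to 2.21 fragments per 1000000 mapped in control, 2.08 in unaffected and 5.31 in affected brain. The number of mapped fragments per library was not used here, so no counting interval is given. Large ratios were more frequent at this level than over all loci. Of the 2709 loci with a mean of 1 to 2 FPKM, where Ell3 with a mean of 1.91 FPKM belongs, 271 were 1.5-fold higher and 189 were 1.5-fold lower in affected than in control, and 408 and 218 were so against unaffected.

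Ell, the founding member of the family, was the most abundant of the 5 genes and lies at chr8:70539675-70592858 on the plus strand. Its level was 5.33 FPKM in control, 5.09 FPKM in unaffected and 5.61 FPKM in affected brain. The 3 groups were close, with log2 ratios of 0.07 for affected against control, 0.14 for affected against unaffected and -0.07 for unaffected against control.

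Ell2, at chr13:75707484-75772358 on the plus strand, was the least abundant. It was measured at 0.521 FPKM in control, 0.520 FPKM in unaffected and 0.519 FPKM in affected brain, values that hardly differ. Its mean lies below 1 FPKM, so it is not among the loci counted against the fold.

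Eaf1, the more abundant partner, lies at chr14:31495079-31509858 on the plus strand. Its level was 3.42 FPKM in control, 3.75 FPKM in unaffected and 4.46 FPKM in affected brain. Affected was the highest and control the lowest, with the unaffected value between them. The log2 ratio was 0.38 for affected against control, which 91.2% of the loci did not reach, 0.25 for affected against unaffected and 0.13 for unaffected against control. None of these ratios was past the 1.5-fold limit.

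Eaf2, the other partner, lies at chr16:36792884-36874826 on the minus strand. It was measured at 0.799 FPKM in control, 0.843 FPKM in unaffected and 0.675 FPKM in affected brain, with affected the lowest. The log2 ratios were -0.24 against control and -0.32 against unaffected, and the mean was below 1 FPKM. Iqcb1, on the opposite strand, overlaps the Eaf2 locus. Iqcb1 stood at 16.4, 16.8 and 13.6 FPKM in control, unaffected and affected, with log2 ratios of -0.27 and -0.30 in the same comparisons. The sources used here do not say that strand was used in counting, so reads of Eaf2 and Iqcb1 in the shared stretch cannot be told apart.

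Of the 5 genes, 3 had a mean of at least 1 FPKM. Among those 3, Ell3 was 1.5-fold higher in affected than in control and none was lower, where 3.67% of all 15548 loci were higher and 3.31% lower. Against unaffected, again Ell3 was higher and none was lower, where 7.4% of loci were higher and 5.25% lower. In unaffected against control none of the 3 was past the fold in either direction, where 2.62% of loci were higher and 3.29% lower. The affected against control count includes the ratio that chose Ell3 and the affected against unaffected count shares the affected animals, so neither is read as a result about the family. The median log2 ratio over all loci was 0.02, 0.01 and 0.01 in the 3 comparisons, and the central 95% of loci in affected against control lay between -0.64 and 0.71.

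**Figure D2:**
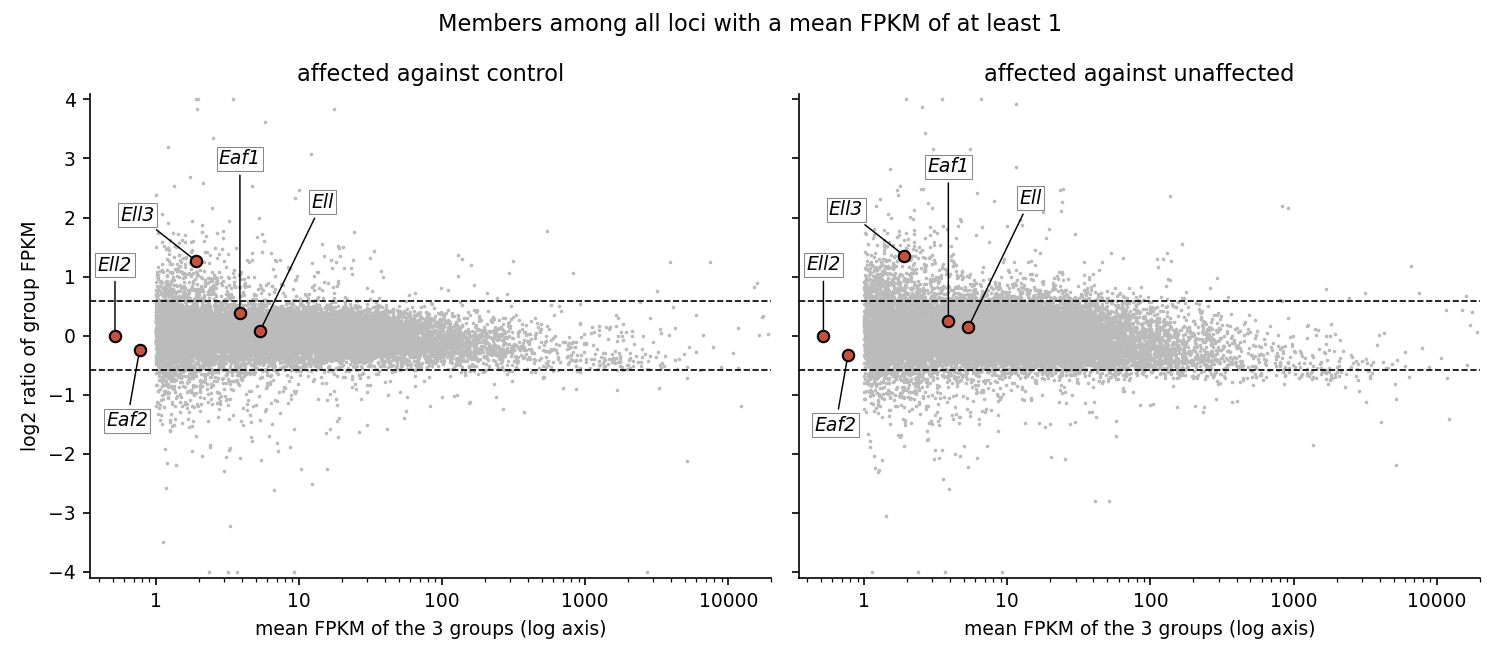
Log2 ratio of group FPKM against mean FPKM (log axis), in affected against control and affected against unaffected. Grey points are loci with a mean of at least 1 FPKM, with ratios beyond 4 drawn at 4. Red points are the 5 genes and dashed lines mark 1.5-fold. Loci at 0 in a compared group (74 against control, 81 against unaffected) are not drawn, and the highest means lie beyond the axis. Ell3 lies above the upper line in both panels at 1.27 and 1.35, Ell and Eaf1 lie between the lines, and Ell2 and Eaf2 lie to the left of the other loci because their means are below 1 FPKM.

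The shares of the Ell family follow from the levels above, including the affected value by which Ell3 was chosen, and are given as a description. Control brain had a summed FPKM of Ell, Ell2 and Ell3 of 7.17, unaffected brain of 6.85 and affected brain of 9.30. Ell3 accounted for 18.4% of the sum in control, 18.2% in unaffected and 34.1% in affected. Over the same groups Ell accounted for 74.3%, 74.3% and 60.3%, and Ell2 for 7.26%, 7.58% and 5.58%. Ell remained the most abundant member in every group, and the order Ell, Eaf1, Ell3, Eaf2, Ell2 was the same in all 3 groups. For the partners the sum was 4.22 FPKM for control, 4.59 FPKM for unaffected and 5.14 FPKM for affected brain, of which Eaf1 made up 81.1%, 81.6% and 86.9%. Of these levels only that of Ell3 in affected brain was past the fold.

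The genes next to Ell3 did not share its pattern. Pdia3, a protein disulfide isomerase of the endoplasmic reticulum, lies on the opposite strand and its locus ends 341 nt from that of Ell3. Pdia3 was measured at 159, 166 and 140 FPKM in control, unaffected and affected, with log2 ratios of -0.19 against control and -0.25 against unaffected. Serinc4, upstream on the same strand, was at 11.0, 11.7 and 9.75 FPKM (log2 ratios -0.18 and -0.26), and Serf2, beside it, at 61.4, 67.9 and 49.8 FPKM (-0.30 and -0.45). Of the 12 loci within 100 kb of Ell3, 9 had a mean of at least 1 FPKM, and none was past 1.5-fold in any of the 3 comparisons. Over all 15548 loci 3.67% were higher and 3.31% lower in affected against control, and 7.4% and 5.25% against unaffected. A count of 0 among 9 is near those shares. Serinc4 and Serf2 have the same coordinates, as do Map1a and Ppip5k1. The median log2 ratio of the 9 was -0.15 in affected against control. The 4 of these within 50 kb (Pdia3, Serinc4, Serf2 and Hypk) were all lower in affected than in control, between -0.30 and -0.18.

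The annotation of the stretch limits what the Ell3 value can be assigned to. GENCODE lists another coding transcript of Ell3 (2115 nt, 12 exons), whose start lies upstream at position 121444278 on chromosome 2. It also lists a Serinc4 transcript of 17 exons marked for nonsense-mediated decay, which runs from 121455837 to 121439059 on the same strand and covers 3543 nt of the Ell3 locus. A gene-level value does not separate these transcripts.

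**Figure D3:**
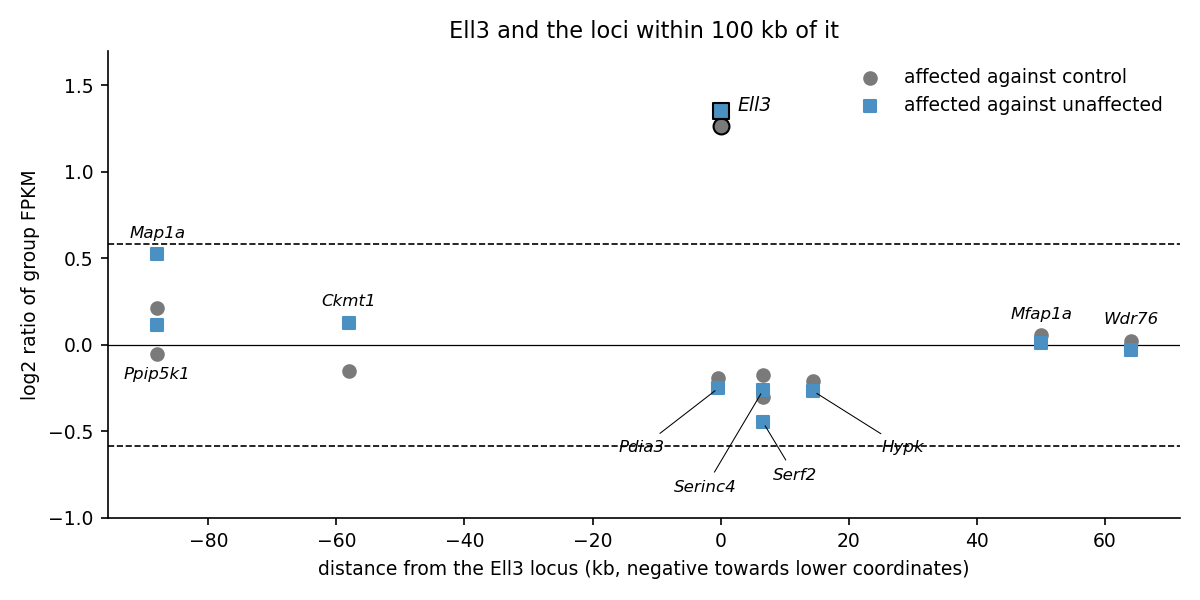
Log2 ratio of group FPKM for Ell3 (outlined, at 0) and the 9 loci within 100 kb that have a mean of at least 1 FPKM, against the distance between locus ends in kb; circles are affected against control, squares affected against unaffected, and dashed lines mark 1.5-fold. Ell3 is at 1.27 and 1.35, while the 4 loci within 50 kb are below 0 in both comparisons.

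The neighbourhoods of the other members were likewise mostly within the fold. Beside Ell, Fkbp8 had a log2 ratio of -0.16 and Isyna1 of 0.05 in affected against control, and none of the 11 loci counted was past the fold. Mettl6, whose locus lies 102 nt from that of Eaf1, was at 15.4, 16.7 and 13.2 FPKM in control, unaffected and affected (log2 ratios -0.22 and -0.34), so it was lowest where Eaf1 was highest. On the other side of Eaf1 lies Colq, at 0.0200, 0.0221 and 0.0249 FPKM. Golgb1, 363 nt from Eaf2, had log2 ratios of 0.39 and 0.55, and Slc15a2, on the other side, of -0.32 and -0.40. Of the 34 loci counted around all 5 genes, 1 was past the fold in affected against control (Mir682, near Ell2, -0.70), and 2 in affected against unaffected (Mir682, -0.78, and Hacl1, near Eaf1, -0.76). Over all loci 3.67% were higher and 3.31% lower against control, and 7.4% and 5.25% against unaffected. The nearest locus after Ell2, Glrx, stood at -0.19.

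The single-gene loci whose pair of log2 ratios, affected against control and affected against unaffected, lay nearest to that of Ell3 were Snord88c, Slc27a2, Papss2, Galm and Krt8. Slc27a2, a fatty acid transporter and acyl-CoA synthetase, was at 0.986, 1.06 and 2.39 FPKM in control, unaffected and affected. Papss2, which makes the sulfate donor PAPS, was at 0.742, 0.724 and 1.66 FPKM. Galm, a mutarotase of galactose metabolism, was at 0.933, 1.15 and 2.17 FPKM, and Krt8, an epithelial keratin, at 1.23, 1.44 and 2.67 FPKM. Snord88c, a small nucleolar RNA, was the nearest at 12.5, 10.6 and 27.9 FPKM. The distances, over 2 log2 ratios that share the affected group, ran from 0.12 for Snord88c to 0.48 for Krt8. The 4 protein-coding genes had levels near that of Ell3.

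The other genes of the elongation machinery were read from 9 lists. In the list of the super elongation complex and the AFF family, 9 of 10 genes had a mean of at least 1 FPKM, and all 9 had a log2 ratio above 0 in affected against both other groups. None of the 9 was past 1.5-fold against control and the median was 0.26. Against unaffected, where 7.4% of all loci were higher, 3 of the 9 were higher and none lower, with a median of 0.27: the scaffold genes Aff3 (19.7, 15.7 and 27.7 FPKM in control, unaffected and affected, log2 ratio 0.82 against unaffected) and Aff2 (0.67), and the locus of Cdk9, the kinase subunit of P-TEFb, which is joined with 2 microRNAs (0.73). The scaffold Aff4 had log2 ratios of 0.26 and 0.27. Kmt2a, whose human counterpart forms leukaemia fusions with ELL and AFF genes, was at 0.27 against control and 0.58 against unaffected, just short of the limit. Aff1 had a mean of 0.979 FPKM and was not counted.

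In the little elongation complex, where Ell proteins act with Ice1 and Ice2, none of 5 genes was past the fold in either comparison, and the medians were -0.08 against control and -0.19 against unaffected. Its highest value against unaffected was Ice1 (0.25) and its lowest Coil (-0.23). Among the 6 genes that hold P-TEFb in or release it from the 7SK complex, none was past the fold against control, and the median was 0.09. The lowest was Hexim2, an inhibitor of P-TEFb, at -0.16. Of the 6 measured genes of the pausing factors NELF and DSIF, 1 was lower against unaffected, the DSIF subunit Supt4a (91.3, 103 and 66.4 FPKM, log2 ratio -0.63), while its partner Supt5 was at 0.33.

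None of the 6 PAF1 complex genes was past the fold, with Rtf1 at 0.36 and Wdr61 at -0.42 against unaffected. Of 15 other elongation factors, the histone chaperone Supt6 was past the fold against unaffected (0.63) and the Elongin subunit Elob was lowest (-0.46). The Integrator list had 1 of 12 past the fold against unaffected, Ints1 (0.71). In the list of RNA polymerase II subunits the largest subunit Polr2a was higher than in control (19.1, 16.2 and 29.4 FPKM, log2 ratio 0.62) and Polr2k lower (208, 195 and 133 FPKM, log2 ratio -0.65), and 11 of 13 subunits were below 0, with a median of -0.28. Against unaffected Polr2a was at 0.86 and Polr2k at -0.55, which is within the fold, and 11 of 13 were below 0, with a median of -0.44. Of the rapidly induced genes, a class often regulated at elongation, 6 of 12 were measured at a mean of at least 1 FPKM and none was past the fold, with Jun the highest (0.23) and Egr1 the lowest (-0.25) against control.

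Over the 8 lists other than the rapidly induced genes, 72 genes were counted. Against control 1 was higher and 1 lower, where 3.67% and 3.31% of all loci were so. Against unaffected 7 were higher and 1 lower, where 7.4% and 5.25% of all loci were so, and in unaffected against control none was past the fold. Their median log2 ratios were 0.06, 0.07 and 0.00, beside 0.02, 0.01 and 0.01 over all loci.

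**Figure D4:**
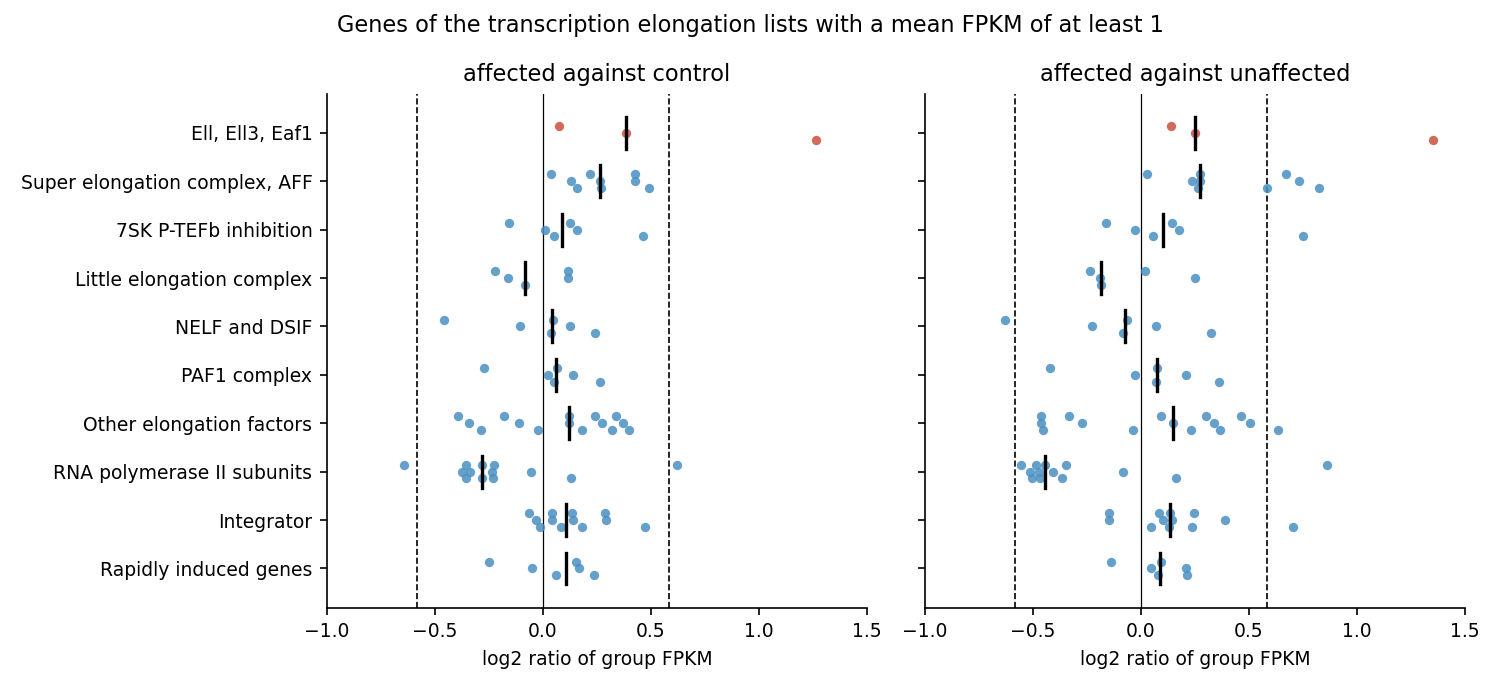
Log2 ratio of group FPKM for each gene with a mean of at least 1 FPKM in the 9 elongation lists (blue points) and for Ell, Ell3 and Eaf1 (red), in affected against control and affected against unaffected; black bars are list medians and dashed lines mark 1.5-fold. Ell3, at 1.27 and 1.35, is the gene the group was chosen by; the super elongation complex genes all lie above 0, and 11 of 13 RNA polymerase II subunits lie below 0.

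The log2 ratios moved with transcript length across the table. A length was found for 80.7% of the 15548 loci. Those loci were divided by the length of their longest transcript into 5 classes of nearly equal size, from 1 (shortest) to 5 (longest). In affected against control the median log2 ratio was -0.19 in class 1, -0.06 in class 2, 0.02 in class 3, 0.09 in class 4 and 0.19 in class 5, and against unaffected it ran from -0.31 in class 1 to 0.31 in class 5. Ell3 belonged to class 2, where 8 of 2507 loci were 1.5-fold higher than in control and 11 of 2507 were higher than in unaffected. That class rests on its longest transcript of 2115 nt. By the 1674 nt of the transcript that matches its locus it belongs to class 1, where 58 and 57 of 2514 loci were higher. Eaf1, with 4918 nt, belonged to class 4, and Ell, with 3072 nt, to class 3. Of the 9 super elongation complex and AFF genes, 6 belonged to class 5, where 331 of 2510 loci were 1.5-fold higher than in unaffected, and of the 13 RNA polymerase II subunits 8 belonged to class 1. The part of transcript length in these list values was not tested.

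The sex-linked genes differed between the groups as well. Xist, the RNA of the inactive X chromosome, was at 9.24 FPKM in control, 0.0210 in unaffected and 10.3 in affected, and the Y-linked Ddx3y at 2.66, 8.40 and 0.00906 FPKM. Ddx3y was thus near 0 in affected and present in both other groups, and Xist was near 0 in unaffected. Sex is not given in the labels, and sex and group cannot be told apart in either comparison with affected brain. The part of sex in the Ell3 value was not tested.

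Markers of other cell types were read beside Ell3. The 6 markers of male germ cells, in view of the testis expression of Ell3, were all below 1 FPKM with sums of 1.16, 0.973 and 0.779 FPKM in control, unaffected and affected, and Tnp1 and Acrv1 were at 0 in all groups. Among 7 B lymphocyte and plasma cell markers all but Sdc1 were below 1 FPKM, and Ms4a1 and Pax5 were at or near 0. Choroid plexus markers summed to 1001, 1329 and 1114 FPKM, and of the 5 with a mean of at least 1 FPKM, 4 were above 0 against control and 2 against unaffected. Clic6 was the furthest apart (log2 ratios 0.89 and 0.63), and Kcne2 the lowest against unaffected (-0.42). Erythroid markers summed to 5813, 7519 and 3648 FPKM, with the joined beta-globin locus the furthest apart (-1.08 against unaffected). Radial glia markers summed to 2433, 2589 and 1819 FPKM, most of which was Fabp7 (2015, 2151 and 1352 FPKM), and without Fabp7 to 418, 438 and 466 FPKM. Of the 7 radial glia markers 4 were above 0 in affected against control (Pax6, Sox2, Vim and Hes1) and 2 against unaffected (Sox2 and Vim). Projection neuron markers summed to 754, 664 and 852 FPKM. Intermediate progenitor markers summed to 73.8, 80.1 and 91.8 FPKM, with Neurog1 at 0.80 against control. Microglia markers summed to 51.0, 53.4 and 43.6 FPKM, with 5 of 7 below 0 against control, from Aif1 at -0.61 to Csf1r at 0.20. Oligodendrocyte precursor markers summed to 36.3, 34.2 and 37.1 FPKM, with 3 of 5 above 0 against unaffected, from Sox10 at -0.27 to Cspg4 at 0.83. The sums for GABAergic neurons (149, 168 and 151 FPKM), meninges (85.1, 78.3 and 75.6 FPKM) and endothelium (59.9, 60.0 and 63.6 FPKM) held no gene past the fold in these comparisons. Neuronal and radial glia markers were thus well above 1 FPKM in all groups. The part of cell make-up in the Ell3 value was not tested.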

How the data were processed

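Sequencing libraries came from the TruSeq RNA kit of Illumina and were read as pairs of short reads. The methods of the study name STAR for alignment in one passage and Bowtie with TopHat in another, and the submitters' processing notes name Bowtie2 (version 2.2.4.0), Cufflinks and Cuffdiff, with the build mm10. The deposited FPKM were computed by the authors with the Cufflinks suite, 1 value per group of 3 animals, in 27095 loci, of which 3871 had no name. The table also holds fold changes, test statistics, p-values and q-values of the authors' comparisons, which were not used here, although the choice of Ell3 goes back to the q-values. It holds 0 columns for individual animals, so depth is unknown and animals could not be compared.

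Ratios were computed from group FPKM with no pseudocount (Python 3, pandas, numpy). The genes were found by symbol, and start positions were counted from 1. Genes named were all 5 members, the 5 single-gene loci nearest to Ell3 by the Euclidean distance of their 2 log2 ratios, list genes past the fold or otherwise the highest and lowest, the nearest or overlapping loci, and marker genes with the largest change in a list with any past the fold. A few others are named for their role, and some genes under this rule are not reported here. Transcripts came from GENCODE and promoter windows from RefSeq, in which all 5 members were found. The ratio and the fold limit were tried on simulated counts that had no variation between animals beyond counting. That trial checks the calculation only and says nothing about error between animals. Alternatives tried were other pseudocounts, scalings, fold limits, filters and windows. Members and lists were chosen with earlier results of these data known.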

Additional observations from a re-analysis of the deposited data

How the results depend on the processing

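Ell3 kept its direction and its place past 1.5-fold in both comparisons with affected brain under all pseudocounts and scalings. Its log2 ratio ran from 0.85 to 1.27 against control and from 0.90 to 1.36 against unaffected, with the lowest values at log2(FPKM + 1). With a looser fold limit, a log2 ratio of 0.32, 2 of the 3 genes counted were higher than in control, Eaf1 being the addition, where 12.7% of all loci were higher and 11.7% lower. With a mean of at least 5 FPKM required, 0 members were past the fold in both comparisons, since Ell3 and Eaf1 leave the counted loci. Ell3 lay above between 98.1% and 99.6% of loci against control under the other filters and scalings.

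At that looser limit, the genes past it against control came to 3 of 9 for the super elongation complex and AFF family, all higher, 1 of 6 for the 7SK list, higher, 1 of 6 for NELF and DSIF, lower, and 1 of 12 for Integrator, higher. They came to 5 of 15 for the other elongation factors (3 higher, 2 lower) and 6 of 13 for RNA polymerase II subunits (1 higher, 5 lower). Against unaffected, where 20.9% of all loci were higher and 18.6% lower, they came to 2 of 6 for NELF and DSIF and 2 of 6 for the PAF1 complex (1 higher and 1 lower in each), 9 of 15 for the other elongation factors (5 higher, 4 lower), 11 of 13 for RNA polymerase II subunits (1 higher, 10 lower) and 2 of 12 for Integrator, both higher. In unaffected against control there was 1 in the super elongation complex list and 1 among the rapidly induced genes, both lower. Within 50 kb, 0 neighbouring loci were past the fold in affected against control and 0 in affected against unaffected, and Ell2 had no neighbour in that window. Other counts of members, list genes and neighbours moved by less than 1.5 times, and many are 0 or 1 throughout, so they say little about stability. The share of all loci 1.5-fold higher in affected than in control moved more. It was 3.67% as given, 0.796% for single-gene loci only, 1.39% with a mean of at least 5 FPKM, 2.01% at log2(FPKM + 1) and 7.27% with no filter. Against unaffected it was 7.4% as given, 3.72% for single-gene loci only, 4.61% with a mean of at least 5 FPKM, 4.05% at log2(FPKM + 1) and 10.3% with no filter.

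No paired analysis was possible because the table gives 1 value per group and none per replicate, and no animal was left out in turn for the same reason. The low level of Ell3, the unknown depth and the missing error between animals limit every ratio given.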
